A study of Mus musculus with 36 samples.

Results

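Lungs exposed to hypoxia for 3 days were compared with lungs exposed for 1 day, on 8 of the 36 spotted 2-colour cDNA arrays of a mouse time course of hypoxic pulmonary hypertension. The day 3 group held 4 arrays of whole lungs of BALB/c mice kept at 0.5 atm for 3 days, and the day 1 group held 4 arrays of whole lungs of BALB/c mice kept at 0.5 atm for 1 day. On each array the hypoxic RNA was a pool from 5 mice, and it was hybridised against a pool from 5 control mice matched for time, so that each day had its own control. The labels used here do not give the age or sex of the mice, and they do not tell whether the 4 arrays of each day hold RNA of different mice. P-values therefore cover the spread of these 4 arrays alone, and that spread may be technical.

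Each value is a log2 ratio of hypoxic lung over its matched control. A positive value is likely to mean higher in hypoxic lung, because the labels' protocol mentions hypoxic cDNA and Cy5 before control cDNA and Cy3, and no label records a dye swap. All differences below are day 3 minus day 1 of these log2 ratios, with a term for replicates 1 and 2 against replicates 3 and 4, so a positive difference means a higher ratio at day 3 and says nothing of the level of the transcript. In RNA of whole lung, fewer cells of a type and less RNA per cell cannot be told apart. Ratios also carry no level, so the presence of lung cell types could not be checked from their markers.

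Low oxygen in the inspired air constricts small pulmonary arteries, and when it persists the vessel wall is rebuilt: fibroblasts and smooth muscle cells divide and lay down collagen and elastic fibres. The early hours also carry a general stress response, in which adrenal glucocorticoids act through their receptor on target genes and immediate early transcription factors are switched on for a short time. Below, of the genes that differed between the days, those that passed a test against control at day 1 alone are called acute in onset. Those that passed it at day 3 alone are called delayed, and genes that passed it on both days are in neither class.

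Few genes passed the test between the days. Of 12085 genes and unnamed spots with values on at least 3 of the 4 arrays of each day, 39 passed at an adjusted p under 0.05 (0.323%), of which 17 were higher at day 3 (0.141%) and 22 were lower (0.182%). An unadjusted p under 0.05 was found for 1398 features (11.6%). The 39 were made up of 26 genes with a name, 12 spots listed under several symbols or none, and 1 gene known by a placeholder name. Day 3 and day 1 arrays did not overlap in 38 of the 39, and both replicate pairs (1 and 2, 3 and 4) gave a difference of 1 sign in all 39, which follows largely from the test that chose them on these same arrays.

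The arrays of a day resembled each other by replicate pair. Pearson correlations over features were 0.67 to 0.72 within a pair of 1 day and -0.15 to 0.57 between the pairs of 1 day. With the replicate number itself as a block 7 features passed (0.0579%), among them 5 of the 26 named genes, and that p is given below beside each call that it ends. Leaving out 1 array at a time gave 13 features without day 3 replicate 4, 13 without day 1 replicate 1, 15 without day 1 replicate 4, 17 without day 1 replicate 2, 21 without day 3 replicate 3, 23 without day 3 replicate 1, 28 without day 1 replicate 3 and 36 without day 3 replicate 2. Mfap4, Nrep, Col3a1, S100a9, Fkbp5, Sgk1 and Klf4 passed in all 8 of these fits, Top2a, Fos and S100g in none, and the other 16 named genes in 1 to 5.

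**Figure D1:**
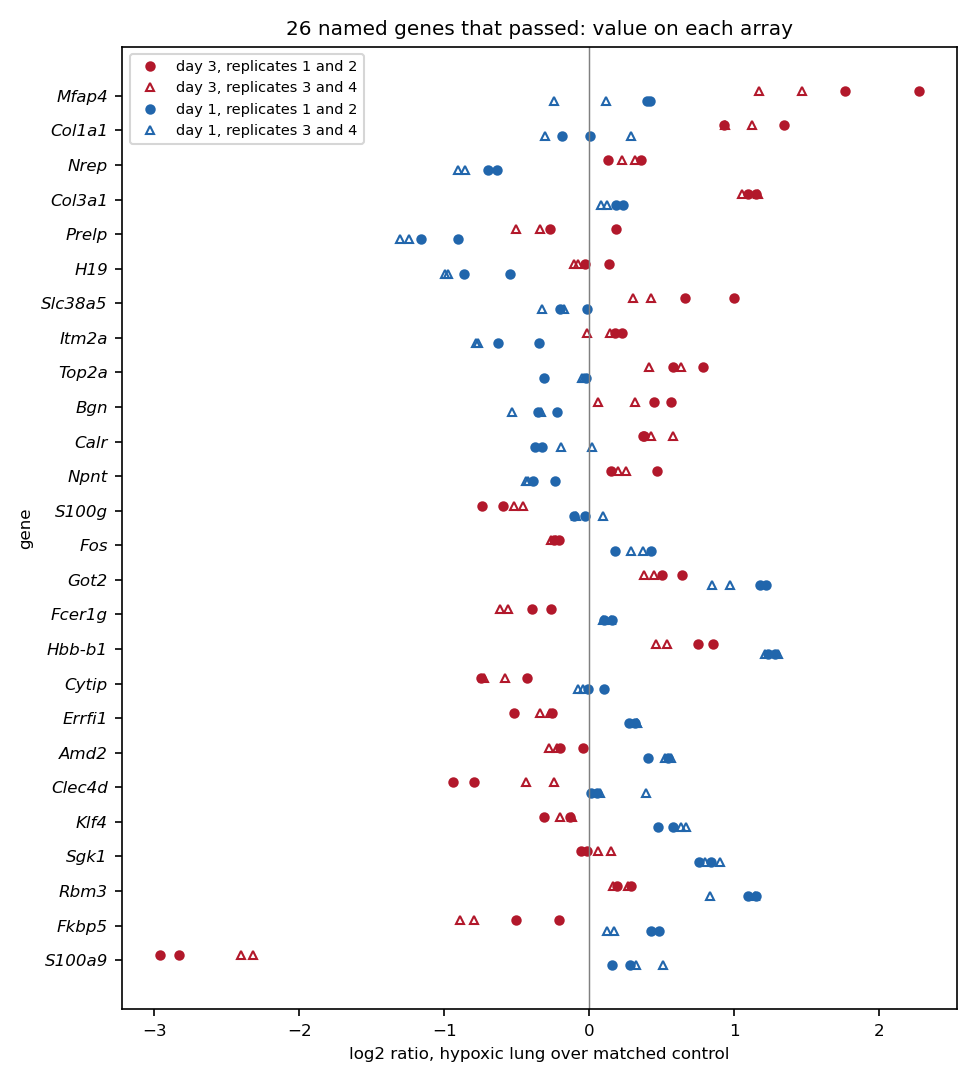
Log2 ratio over matched control on each array (x axis) for the 26 named genes that passed (y axis, ordered by difference), day 3 in red above day 1 in blue, with filled circles for replicates 1 and 2 and open triangles for replicates 3 and 4. The 4 day 3 values and the 4 day 1 values of every gene shown lie apart, most widely for S100a9.

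Among the gene lists, which were chosen with earlier results of these data known, the extracellular matrix list held the most genes that passed as higher at day 3. Of 27 measured members of the matrix list, 4 passed, all of them higher at day 3, and 21 had a positive difference, with a median difference of 0.27 where the median over all features was 0.0018 and 50.6% were positive. Day 3 arrays lay wholly above day 1 arrays in 13 of the 27, as they did in 2.79% of all features. A higher ratio at day 3 passed in 0.141% of all features. The median difference was 0.47 in replicates 1 and 2 and 0.21 in replicates 3 and 4. Against the matched control, 16 of the 27 passed above 0 at day 3 and 8 at day 1, beside 1 and 5 that passed below 0. Over all features, 13.7% passed above 0 at day 3 and 11.6% at day 1, beside 9.78% and 9.69% that passed below 0.

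Mfap4, a microfibril protein of elastic fibres, had log2 ratios of 1.76, 2.27, 1.17 and 1.47 on the day 3 arrays, against 0.40, 0.42, 0.12 and -0.24 on the day 1 arrays. All 4 day 3 values were high and the day 1 values lay on both sides of 0, with no overlap. Its difference of 1.50 (SE 0.14, adjusted p = 0.0050) corresponds to a ratio 2.82-fold higher at day 3, and it was 1.61 in replicates 1 and 2 and 1.38 in replicates 3 and 4. Its 2 spots gave 1.62 and 1.37.

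The chains of the fibrillar collagens, the rope-like proteins that give the vessel wall its tensile strength, followed. Col1a1, the alpha 1 chain of type I collagen, had 0.93, 1.34, 0.93 and 1.12 at day 3, against -0.19, 0.00, 0.28 and -0.30 at day 1, a difference of 1.13 (SE 0.15, adjusted p = 0.018, or 0.064 with the replicate block). Col3a1, the chain of type III collagen, had 1.09, 1.15, 1.05 and 1.17 at day 3, against 0.18, 0.23, 0.08 and 0.12 at day 1, a difference of 0.96 (SE 0.08, adjusted p = 0.0036). The spread of Col3a1 within each day was small beside the gap between the days. Of its 4 spots, 3 gave differences of 1.21, 1.21 and 1.38 and the other gave 0.04. Col1a2, the partner chain in type I collagen, did not pass (0.86 at day 3, 0.02 at day 1, difference 0.85, adjusted p = 0.061), and is named here after its value was seen. Its difference was 1.12 in replicates 1 and 2 and 0.57 in replicates 3 and 4.

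Proteoglycans of the matrix differed in where they started. Bgn, biglycan, a small leucine-rich proteoglycan that binds collagen, had 0.44, 0.56, 0.06 and 0.31 at day 3, against -0.36, -0.23, -0.33 and -0.53 at day 1, so that it lay above its control at day 3 and below it at day 1 (difference 0.71, SE 0.10, adjusted p = 0.028, or 0.16 with the replicate block). Prelp, a proteoglycan of the same family that anchors basement membranes, had -0.27, 0.18, -0.34 and -0.51 at day 3, against -1.16, -0.91, -1.25 and -1.31 at day 1. For Prelp the higher day 3 value was thus nearer 0 than a low day 1 value (difference 0.92, SE 0.12, adjusted p = 0.017). The Prelp mean was -0.67 at day 7, -1.07 at day 14 and -0.32 at day 21, and these days were not tested. Npnt, nephronectin, a matrix ligand of integrins, averaged 0.27 ± 0.14 at day 3 and -0.37 ± 0.09 at day 1 (SD, n = 4 each), with an adjusted p of 0.037, or 0.21 with the replicate block. Dcn, decorin, the proteoglycan most like biglycan, averaged -0.96 on both days and is named after its value was seen.

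The fibroblast and pericyte list held 12 measured genes, with a median difference of 0.13. Col1a1 and Col3a1, already counted with the matrix, were the 2 that passed, both as higher, beside 0.141% of all features. The receptors that mark fibroblasts and pericytes, Pdgfra and Pdgfrb, had differences of -0.04 and 0.26 and did not pass (adjusted p = 0.94 and 0.47). Among 13 smooth muscle contractile genes none passed, 1 had day 3 arrays wholly above day 1 arrays (2.79% of all features did), and the median difference was 0.04. The genes of that list with the lowest p were Actn1, an actin crosslinker, at -0.28, and Mylk, the kinase of myosin light chain, at 0.37.

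**Figure D2:**
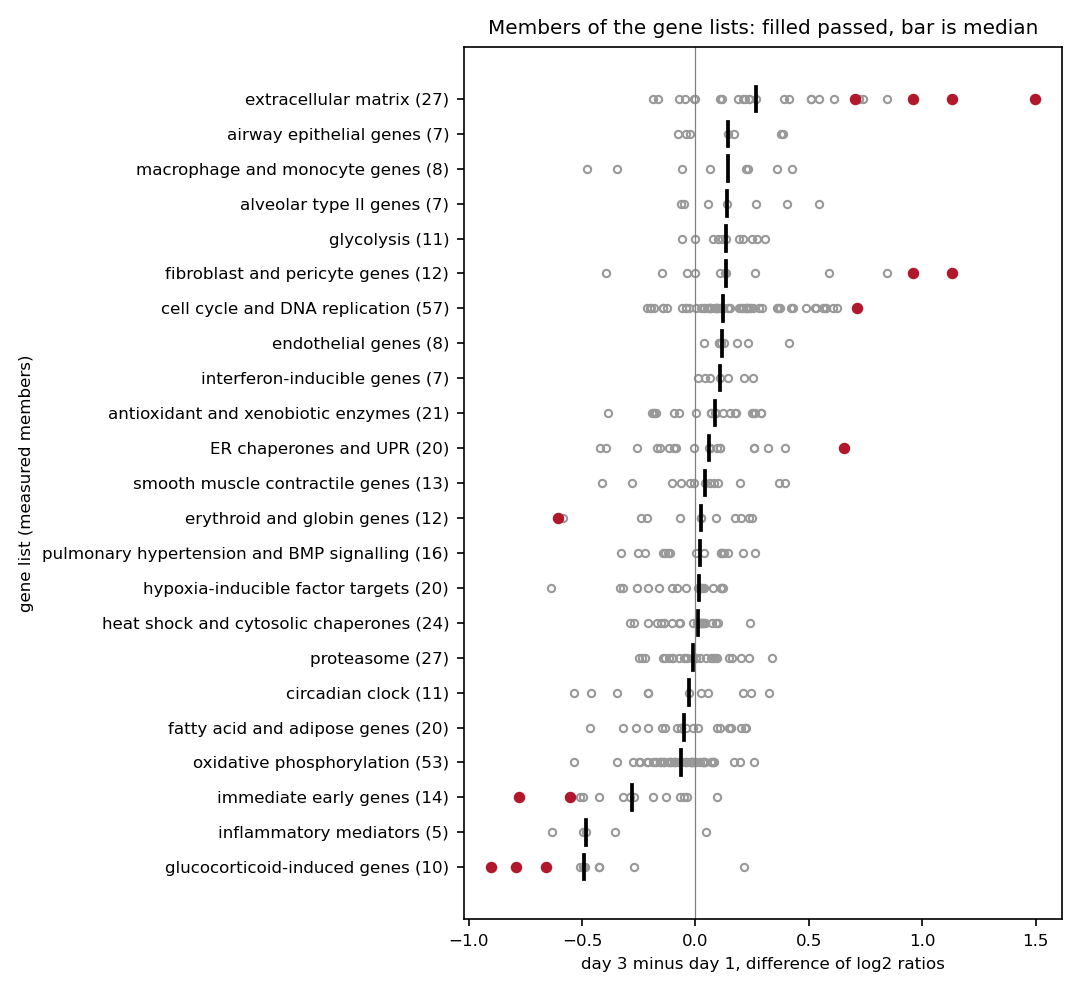
Day 3 minus day 1 difference of log2 ratios (x axis) for each measured member of the gene lists with at least 5 measured members (y axis, number measured in brackets), filled where the member passed, with a bar at the list's median. Matrix genes reach up to 1.50 at the right, and the glucocorticoid-induced, inflammatory and immediate early lists have medians of -0.49, -0.48 and -0.28. The neutrophil granule list, with 4 measured genes, is not drawn.

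Nrep, a small protein expressed in myofibroblasts and regenerating neurons, had 0.13, 0.36, 0.32 and 0.23 at day 3, against -0.64, -0.70, -0.86 and -0.91 at day 1. Every day 3 value was above 0 and every day 1 value below it, and the difference of 1.03 (SE 0.09, adjusted p = 0.0050) was 0.91 in replicates 1 and 2 and 1.15 in replicates 3 and 4. H19, an imprinted long noncoding RNA abundant in fetal tissue, had -0.03, 0.14, -0.11 and -0.08 at day 3, against -0.86, -0.55, -0.99 and -0.98 at day 1. The gene had thus returned to near its control level by day 3, from a low ratio on each day 1 array (difference 0.83, SE 0.10, adjusted p = 0.0094, or 0.064 with the replicate block). H19 was on 8 spots, 7 of which had differences of 0.59 to 1.30, while the eighth had -0.05.

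A pair of membrane proteins was also higher at day 3. Slc38a5, a transporter of glutamine and other neutral amino acids, averaged 0.60 ± 0.31 at day 3 and -0.18 ± 0.13 at day 1 (SD, n = 4 each), a difference of 0.78 with an adjusted p of 0.037, or 0.10 with the replicate block. Itm2a, a membrane protein found in cartilage precursors and activated T cells, averaged 0.13 ± 0.10 at day 3 and -0.63 ± 0.20 at day 1, a difference of 0.76 with an adjusted p of 0.013, or 0.076 with the replicate block. Against its control, Slc38a5 passed above 0 at day 3 alone, whereas Itm2a passed below 0 at day 1 alone.

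Genes of the cell cycle and of DNA replication leaned to the day 3 side. Of 57 measured members 1 passed, as higher at day 3, and 46 had a positive difference (80.7%). Over all features 0.141% passed as higher and 50.6% had a positive difference. In 10 of the 57, day 3 arrays lay wholly above day 1 arrays, as they did in 2.79% of all features. The median difference of the list was 0.12, with 0.18 in replicates 1 and 2 and 0.090 in replicates 3 and 4. Against the matched control, 27 of the 57 passed above 0 at day 3 and 5 at day 1, against 13.7% and 11.6% of all features. Top2a, the topoisomerase that untangles chromosomes in dividing cells, was the member that passed: it had 0.58, 0.78, 0.63 and 0.41 at day 3, against -0.03, -0.32, -0.05 and -0.04 at day 1. The difference of 0.71 (SE 0.11) had an adjusted p of 0.042, or 0.22 with the replicate block. It did not pass in any of the 8 fits that left out an array, and its 2 spots gave 0.91 and 0.52. The mitotic kinase Cdk1 (0.80 at day 3, 0.23 at day 1, adjusted p = 0.089) and the mitotic cyclin Ccnb2 (0.68 at day 3, 0.06 at day 1, adjusted p = 0.19) did not pass, nor did Mki67, a marker of dividing cells, at -0.05 at day 3 and 0.08 at day 1, which rests on 3 day 1 arrays. These 3 genes are named after their values were seen. The promoter of Top2a is shown because CCAAT boxes, to which the factor NF-Y binds, are a known feature of promoters of mitotic genes. The window holds 6 matches to CCAAT on either strand, in capitals, in the 250 bases before the gene's start at chr11:99024190-99024439 on the minus strand of GRCm38.p6, from RefSeq and written in the direction of the gene. A match to CCAAT on either strand was found in 33.8% of 32851 such windows.
Top2a: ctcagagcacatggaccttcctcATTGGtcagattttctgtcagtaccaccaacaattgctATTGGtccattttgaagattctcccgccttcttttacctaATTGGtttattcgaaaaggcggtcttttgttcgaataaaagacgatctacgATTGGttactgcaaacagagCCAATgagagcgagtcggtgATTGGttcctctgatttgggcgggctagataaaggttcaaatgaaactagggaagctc

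Calr, calreticulin, the calcium-binding chaperone of glycoproteins in the endoplasmic reticulum, had 0.37, 0.38, 0.42 and 0.57 at day 3, against -0.33, -0.37, 0.01 and -0.20 at day 1. It was above its control on each day 3 array and near or below it on each day 1 array (difference 0.66, SE 0.09, adjusted p = 0.020, or 0.16 with the replicate block). It was the 1 gene that passed among 20 measured members of the list of reticulum chaperones and unfolded protein response. That list had 11 positive and 9 negative differences and a median of 0.06, and 0.141% of all features passed as higher. The Calr promoter is shown because it holds the endoplasmic reticulum stress element (CCAAT, 9 bases of any kind, then CCACG). The unfolded protein response acts on chaperone genes through this binding site. This motif was found on either strand in 37 of 32851 windows (0.113%), and it includes the letters of the CCAAT box. The capitals in the 250 bases at chr8:84846932-84847181, minus strand of GRCm38.p6 and written in the direction of the gene, mark both ends of that element, read on the opposite strand, and a further CCAAT.
Calr: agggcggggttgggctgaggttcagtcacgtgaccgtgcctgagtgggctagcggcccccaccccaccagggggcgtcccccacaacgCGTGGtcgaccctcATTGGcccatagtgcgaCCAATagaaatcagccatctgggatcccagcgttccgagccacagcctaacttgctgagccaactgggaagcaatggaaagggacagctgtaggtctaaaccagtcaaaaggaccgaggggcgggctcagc

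**Figure D3:**
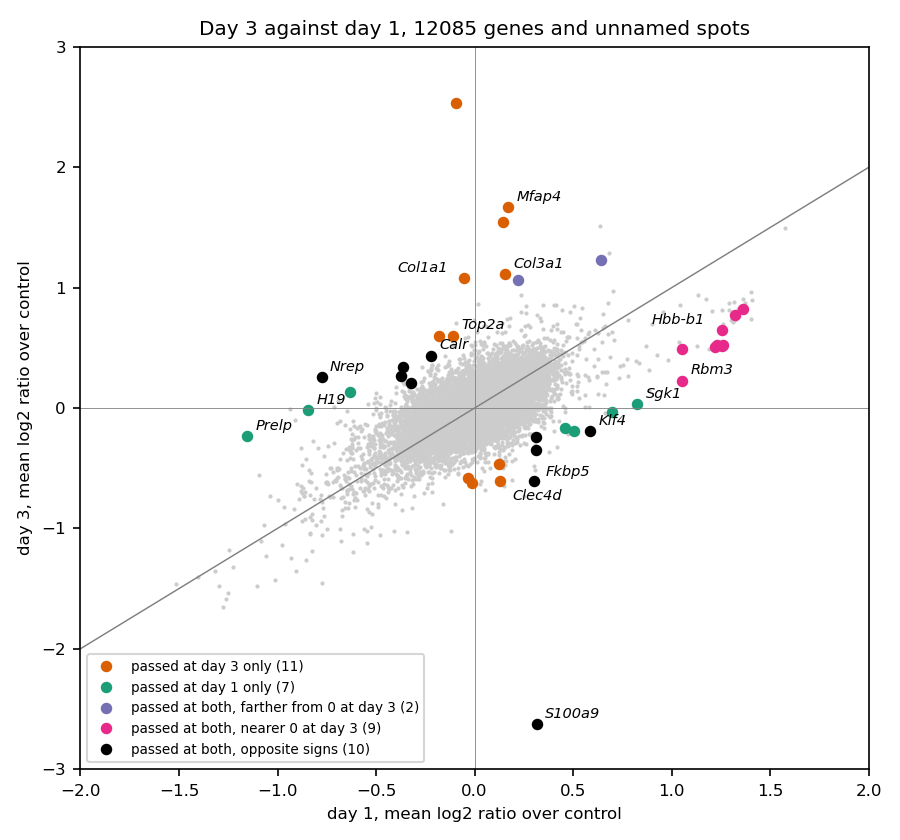
Mean log2 ratio over matched control at day 3 (y axis) and at day 1 (x axis) for 12085 genes and unnamed spots in grey, with the 39 that passed coloured by whether each day passed against its control. The diagonal marks equal values, and S100a9, at -2.63 on day 3 and 0.31 on day 1, lies farthest below it.

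Onset was read from whether each day's mean passed against its matched control in the same fit, which 2832 features did at day 3 (23.4%) and 2570 at day 1 (21.3%). Of the 39 features that differed between the days, 11 passed at day 3 and not at day 1 and may be called delayed, 7 of them higher and 4 lower at day 3. Those higher include the spot listed under Xist and Tsix, described below. It averaged 2.54 at day 3 and -0.22, 0.35 and 0.13 at days 7, 14 and 21. A further 7 passed at day 1 and not at day 3 and may be called acute, 3 higher and 4 lower at day 3. The sign turned in 10, of which 5 were higher and 5 lower at day 3, and 9 kept their sign but lay nearer 0 at day 3, all of them lower there. The 2 that kept their sign and lay farther from 0 at day 3 were spots with no symbol. Named genes of delayed onset were Mfap4, Col1a1, Col3a1, Slc38a5 and Top2a, which were higher at day 3, and Clec4d, Cytip, Fcer1g and S100g, which were lower. Named genes of acute onset were Sgk1 and Amd2, high at day 1, and H19, Prelp and Itm2a, low at day 1. A day that did not pass is not shown to equal its control. By limma, the adjusted p of that day was 0.059 for Amd2, 0.074 for Prelp and 0.083 for Col3a1. In the other named genes of these classes it ranged from 0.16 (Slc38a5) to 0.93 (Cytip).

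Of the same gene lists, that of genes induced by glucocorticoids held the most genes that passed as lower at day 3. Globin spots, described below, were also lower. Of 10 measured members of the glucocorticoid list, 3 passed, all lower at day 3, and 9 had a negative difference, with a median difference of -0.49. Day 3 arrays lay wholly below day 1 arrays in 7 of the 10, as they did in 3.06% of all features. A lower ratio at day 3 passed in 0.182% of all features, and 5971 of 12085 features had a negative difference. The median log2 ratio of the list was -0.04 at day 3 and 0.43 at day 1, and 3 of the 10 passed above 0 and 4 below 0 at day 3, against 9 above and 1 below at day 1. Over all features, 13.7% passed above 0 and 9.78% below 0 at day 3, against 11.6% and 9.69% at day 1. The list's median difference was -0.44 in replicates 1 and 2 and -0.54 in replicates 3 and 4. The part of glucocorticoids in these differences was not tested.

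Sgk1, a kinase first found as a serum- and glucocorticoid-regulated transcript and a regulator of sodium channels, had -0.06, -0.02, 0.15 and 0.06 at day 3, against 0.76, 0.84, 0.80 and 0.90 at day 1. The day 1 values were all high and the day 3 values all near 0 (difference -0.79, SE 0.08, adjusted p = 0.0059, or 0.064 with the replicate block). Fkbp5, a co-chaperone of the glucocorticoid receptor and a standard target of it, had -0.51, -0.21, -0.80 and -0.89 at day 3, against 0.48, 0.42, 0.12 and 0.17 at day 1. It lay below its control at day 3 and above it at day 1 (difference -0.90, SE 0.10, adjusted p = 0.0065, or 0.064 with the replicate block). Errfi1, a feedback inhibitor of the epidermal growth factor receptor, had -0.52, -0.26, -0.34 and -0.27 at day 3, against 0.28, 0.31, 0.33 and 0.33 at day 1, a difference of -0.66 (adjusted p = 0.018, or 0.13 with the replicate block). Other members did not pass: the metallothioneins Mt2 and Mt1, metal-binding proteins, averaged 0.55 and 0.39 at day 3, against 1.04 and 0.82 at day 1 (adjusted p = 0.13 and 0.14). Nfkbia, the inhibitor of the factor NF-kB, averaged -0.29 at day 3 and 0.20 at day 1 (adjusted p = 0.061).

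Immediate early genes, transcription factors and their partners that cells switch on within minutes of a stimulus, leaned the same way. Of 14 measured members 2 passed, both lower at day 3, 13 had a negative difference, and the median was -0.28. Over all features 0.182% passed as lower, and 5971 of 12085 had a negative difference. This list shares Gadd45g with the list before it. Klf4, a zinc-finger factor of endothelium and epithelium, had -0.14, -0.31, -0.12 and -0.20 at day 3, against 0.57, 0.47, 0.67 and 0.63 at day 1 (difference -0.78, SE 0.08, adjusted p = 0.0065, or 0.064 with the replicate block). Its 2 spots gave -0.85 and -0.70. Fos, a subunit of the AP-1 factor, had -0.21, -0.24, -0.23 and -0.26 at day 3, against 0.43, 0.17, 0.29 and 0.37 at day 1. For both genes the day 3 values were all below 0 and the day 1 values all above it. The difference of Fos, -0.55 (adjusted p = 0.042, or 0.22 with the replicate block), did not pass in any of the 8 fits that left out an array. Jun, the partner of Fos in AP-1, averaged -0.32 at day 3 and 0.11 at day 1, and Egr1, another such factor, averaged -0.03 at day 3 and 0.02 at day 1, neither of which passed (adjusted p = 0.13 and 0.87). Both are named after their values were seen.

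The promoters of Errfi1 and Fos are shown because both genes were below their control at day 3 and above it at day 1, and both windows carry a TATA box. In Errfi1 the capitals mark the cyclic AMP response element TGACGTCA, the TATA box TATAAA and a CCAAT box read on the opposite strand. In Fos they mark TATAAA. Searched on both strands, TGACGTCA was in 1.55% of the 32851 windows and TATAAA in 12.4%. The windows are the 250 bases before the start, on the plus strand of GRCm38.p6, at chr4:150854820-150855069 for Errfi1 and at chr12:85473640-85473889 for Fos. Errfi1 has a further window, which holds none of the motifs searched and is not shown.
Errfi1: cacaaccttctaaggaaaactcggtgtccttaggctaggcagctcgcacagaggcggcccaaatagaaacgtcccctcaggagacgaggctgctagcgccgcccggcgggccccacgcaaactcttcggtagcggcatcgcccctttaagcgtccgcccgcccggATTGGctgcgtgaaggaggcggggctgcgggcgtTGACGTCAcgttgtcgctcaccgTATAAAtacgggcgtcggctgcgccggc
Fos: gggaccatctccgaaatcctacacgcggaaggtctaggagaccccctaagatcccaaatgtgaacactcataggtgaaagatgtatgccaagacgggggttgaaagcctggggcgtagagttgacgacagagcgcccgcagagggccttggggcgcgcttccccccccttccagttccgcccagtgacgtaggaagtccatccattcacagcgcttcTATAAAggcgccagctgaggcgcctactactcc
The glucocorticoid receptor half-site TGTTCT, which the full receptor element contains, was found on either strand in 4 of 18 windows of the genes lower at day 3, in 1 of 9 windows of the genes higher at day 3 and in 16.1% of all windows. Of the 4 windows, 3 belong to Sgk1 and 1 to Clec4d, and the windows of Fkbp5 and Errfi1 hold no match. Windows were at hand for 20 of the 26 named genes, some genes having several, and TATAAA was in 5 of 18 windows of the lower and 1 of 9 windows of the higher genes.

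S100a9, a calcium-binding protein of neutrophils and a subunit of calprotectin, had the largest difference of any tested feature. It had -2.83, -2.96, -2.32 and -2.40 at day 3, against 0.15, 0.28, 0.32 and 0.51 at day 1. The difference of -2.94 (SE 0.10, adjusted p = 3.6e-06) corresponds to a ratio 7.69-fold lower at day 3, and it was -3.11 in replicates 1 and 2 and -2.77 in replicates 3 and 4. The adjusted p was 0.00025 with the replicate block. Only 4 genes of the neutrophil granule list were measured, and the other 3 did not pass: Ltf, lactoferrin, averaged 1.52 at day 3 and 0.64 at day 1 (adjusted p = 0.089), Lcn2, lipocalin 2, averaged 0.75 at day 3 and 0.53 at day 1, and Csf3r, the receptor for granulocyte colony-stimulating factor, averaged 0.12 at day 3 and 0.16 at day 1. The day 3 values of Ltf, 1.17 to 2.07, all lay above its day 1 values, 0.52 to 0.85, in the direction opposite to S100a9, which was on 1 spot.

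Clec4d, Fcer1g and Cytip, 3 genes known from leukocytes that are in none of the gene lists, were lower at day 3. Clec4d, a C-type lectin receptor of macrophages and neutrophils, had -0.80, -0.94, -0.25 and -0.44 at day 3, against 0.05, 0.01, 0.07 and 0.39 at day 1 (difference -0.74, adjusted p = 0.040, or 0.21 with the replicate block). Fcer1g, the signalling chain shared by several Fc receptors, had -0.40, -0.27, -0.56 and -0.62 at day 3, against 0.10, 0.15, 0.09 and 0.15 at day 1 (difference -0.59, adjusted p = 0.040, or 0.22 with the replicate block). Cytip, which loosens the adhesion of leukocytes, averaged -0.62 ± 0.15 at day 3 and -0.01 ± 0.08 at day 1 (SD, n = 4 each; adjusted p = 0.042, or 0.16 with the replicate block). Among 8 measured macrophage and monocyte genes none passed, 5 differences were positive and 3 negative with a median difference of 0.14, and the list's median log2 ratio was -0.14 at day 3 and -0.20 at day 1. Those with the lowest p were Cybb, the catalytic subunit of the phagocyte oxidase (-0.84 at day 3, -0.37 at day 1), and the Fc receptor Fcgr3 (-0.45 at day 3, -0.10 at day 1). The part of these cells' number in the differences was not tested.

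Globins, the oxygen-carrying proteins of red cells, were above control on both days and nearer to it at day 3. Hbb-b1, the beta chain of adult haemoglobin, had 0.75, 0.85, 0.53 and 0.46 at day 3, against 1.28, 1.23, 1.30 and 1.21 at day 1 (difference -0.61, SE 0.09, adjusted p = 0.040, or 0.22 with the replicate block). Beta globin genes are near copies of each other, so its signal may hold theirs. All 29 spots listed under a globin gene had a lower ratio at day 3, with a median of 0.79 at day 3 and 1.31 at day 1, but 22 of them are listed under several symbols and may report a shared signal. Of these, spots under Hbb-b2 and Hbb-b1 passed at -0.73 and -0.71 (adjusted p = 0.0065 and 0.018, or 0.074 and 0.14 with the replicate block). A spot under Hba-a2, Hba-a1 and H3f3a passed at -0.53 (adjusted p = 0.047, or 0.22 with the replicate block). Of the 12 measured genes of the erythroid list 1 passed, as lower, beside 0.182% of all features, and the list's median difference was 0.03. Alas2, the enzyme that starts haem synthesis in red cells, averaged 0.67 over 3 day 3 arrays and 0.65 at day 1 and is named after its value was seen. Got2, the mitochondrial aspartate aminotransferase, had 0.50, 0.64, 0.37 and 0.44 at day 3, against 1.22, 1.18, 0.97 and 0.84 at day 1 (difference -0.56, adjusted p = 0.037, or 0.22 with the replicate block). Its mean was 1.21 at day 7, 0.62 at day 14 and 0.32 at day 21, beside 1.63, 0.88 and 0.52 for Hbb-b1.

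Of the other genes lower at day 3, Rbm3, an RNA-binding protein induced by cold, had 0.19, 0.29, 0.26 and 0.16 at day 3, against 1.09, 1.15, 0.83 and 1.14 at day 1. It stayed above its control on all 8 arrays (difference -0.82, SE 0.09, adjusted p = 0.0088, or 0.076 with the replicate block). Amd2, listed as an S-adenosylmethionine decarboxylase of polyamine synthesis, averaged -0.19 ± 0.10 at day 3 and 0.51 ± 0.07 at day 1 (SD, n = 4 each; adjusted p = 0.016, or 0.13 with the replicate block). It is a near copy of Amd1, so its signal may be that of Amd1. S100g, a calcium-buffering protein of epithelia, averaged -0.58 ± 0.12 at day 3 and -0.04 ± 0.09 at day 1 (adjusted p = 0.045, or 0.24 with the replicate block).

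Pathways commonly tied to low oxygen or to the time of day held no gene that passed. Among 20 measured targets of hypoxia-inducible factors, 11 differences were positive and 9 negative with a median of 0.02, and the lowest p belonged to Slc2a3, a glucose transporter, at -0.49 at day 3 and 0.14 at day 1 (adjusted p = 0.084). Of 11 glycolytic genes 9 had a positive difference, with a median of 0.14, and of 53 genes of oxidative phosphorylation 38 had a negative one, with a median of -0.06. The median of the oxidative phosphorylation genes was 0.02 in replicates 1 and 2 and -0.14 in replicates 3 and 4. Of 11 clock genes 5 were positive and 6 negative, and Cry1, a repressor of the clock, averaged -0.11 at day 3 and 0.43 at day 1 (adjusted p = 0.060). Of 16 genes of pulmonary hypertension and BMP signalling none passed, and Bmpr2, the receptor mutated in human heritable pulmonary hypertension, averaged -1.01 at day 3 and -0.68 at day 1 (adjusted p = 0.30). Bmpr2 was below its control on all 8 arrays.

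**Figure D4:**
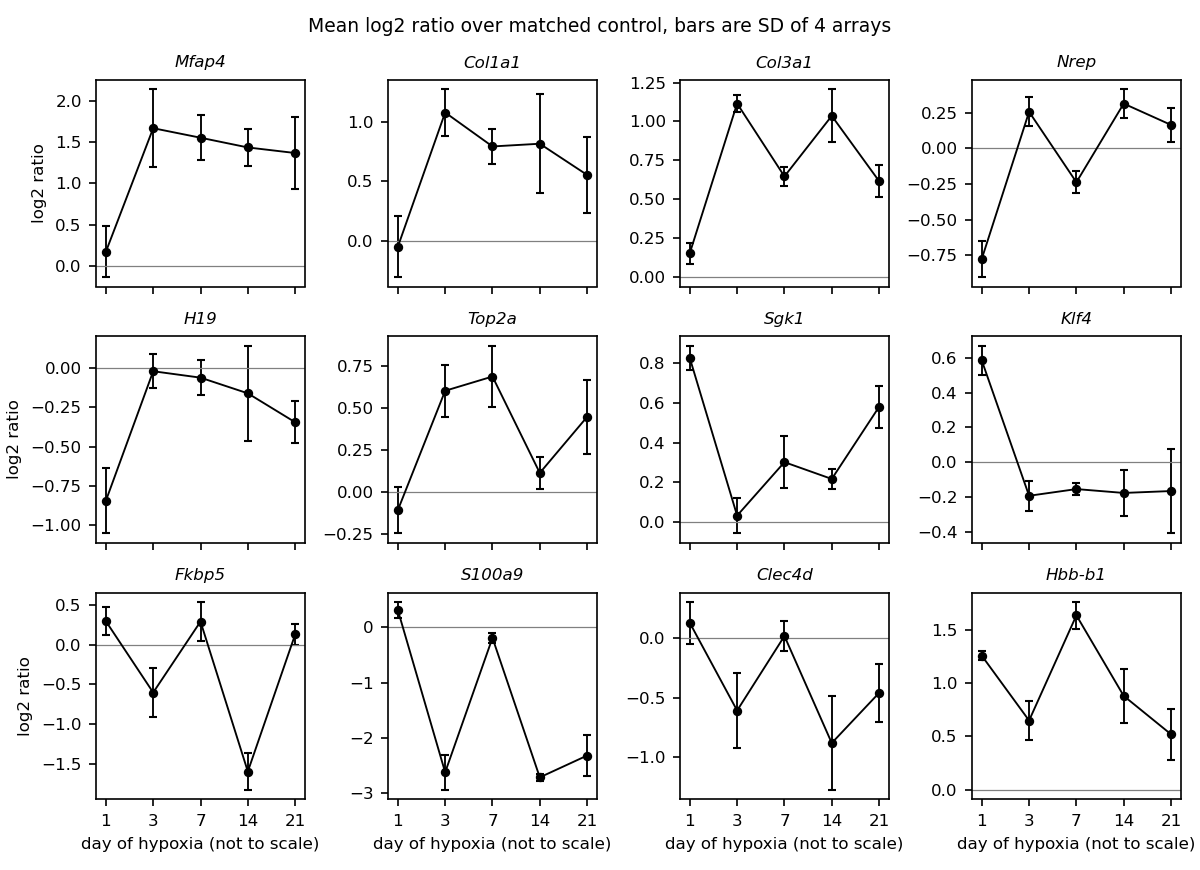
Mean log2 ratio over matched control (y axis, a scale of its own in each panel) on days 1, 3, 7, 14 and 21 of hypoxia (x axis, evenly spaced) for 12 named genes that passed, with bars for the SD of 4 arrays. Mfap4 stays between 1.37 and 1.67 from day 3 on, whereas S100a9 and Fkbp5 return near to or above 0 at day 7 and lie at -2.72 and -1.60 at day 14.

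Arrays of days 7, 14 and 21, which the comparison did not use, were read for how the differences lasted. Of the 17 features higher at day 3, the mean lay nearer the day 3 than the day 1 mean in 14 at day 7, 14 at day 14 and 12 at day 21. Of the 22 that were lower at day 3, this was so for 5 at day 7, 20 at day 14 and 14 at day 21. Over all tested features the shares were 55.9% at day 7, 54.8% at day 14 and 47.9% at day 21. Mfap4 kept its high ratio, with means of 1.55, 1.43 and 1.37 at days 7, 14 and 21, and Col1a1 had 0.79, 0.82 and 0.55. Klf4 kept its low ratio, with -0.15, -0.18 and -0.17 at these days. Fkbp5, in contrast, had 0.29 at day 7, -1.60 at day 14 and 0.13 at day 21, and S100a9 had -0.19, -2.72 and -2.32. Fos likewise lay at 0.50 at day 7, -0.33 at day 14 and 0.33 at day 21. The day 7 means of these last 3 genes were thus nearer to day 1 than to day 3, and no test was made across these days, each of which had its own control.

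Among the spots without a single symbol, the spot listed under both Xist, the RNA that coats the inactive X chromosome in female cells, and its antisense partner Tsix had the largest positive difference of all features. It had 2.89, 3.12, 2.60 and 1.53 at day 3, against -0.14, -0.08, -0.16 and 0.00 at day 1 (difference 2.63, SE 0.26, adjusted p = 0.0050). On the 32 arrays of days other than day 3 it ranged from -0.57 to 1.56 with a median of 0.09, and its second highest value was 0.44. Eif2s3y, the Y-linked gene measured, averaged -0.28 ± 0.27 at day 3 and -0.11 ± 0.22 at day 1 (SD, n = 4 each). Its value was -0.68 on day 3 replicate 2 and between -0.19 and -0.11 on the other day 3 arrays. At days 7, 14 and 21 Eif2s3y averaged -0.48, -0.36 and -0.31. The sex of the pooled mice is not given in the labels used here, and its part in any difference was not tested. A further 4 spots with no symbol were higher at day 3, by 1.40, 0.84, 0.59 and 0.53, with adjusted p of 0.043, 0.064, 0.22 and 0.24 under the replicate block. A further 3 spots with no symbol, at 0.52, 0.52 and 0.77 at day 3 and 1.26, 1.23 and 1.32 at day 1, had ratios like those of the globins on both days and adjusted p of 0.076, 0.083 and 0.22 under the replicate block. Another spot with no symbol lay at -0.04 at day 3 and 0.70 at day 1 (adjusted p = 0.0077, or 0.076 with the replicate block).

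**Figure D5:**
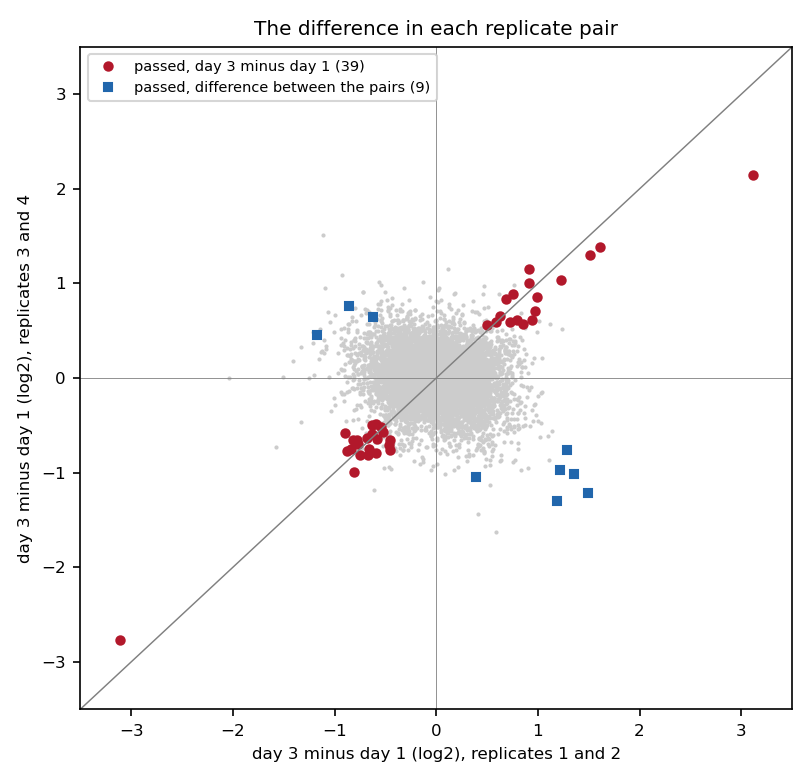
Day 3 minus day 1 difference of log2 ratios in replicates 1 and 2 (x axis) and in replicates 3 and 4 (y axis) for 12085 features in grey, the 39 that passed in red and the 9 whose difference itself differed between the pairs as blue squares. The 39 lie where both pairs have the same sign and the 9 squares where the signs are opposite, positions that follow from how each set was chosen.

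The difference between the days itself differed between the replicate pairs in 9 features (0.0745%), none of them with a name and none among the 39. Over all features the sign was the same in both pairs in 48.8%. With replicates 1 and 2 alone 2 features passed, and with replicates 3 and 4 alone 1 passed, S100a9 being the named gene in each. With the spread estimated from all 36 arrays of the series, 331 features passed (2.74%), among them 37 of the 39. Among the 26 named genes, Bgn alone did not pass in that fit (adjusted p = 0.068 by limma).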

How the data were processed

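Whole-lung RNA was measured on spotted 2-colour cDNA arrays. Per the labels' protocols, the authors read slides with GenePix Pro 4.0, corrected the background, removed flagged values and deposited log2 ratios of median intensities normalised by lowess. These deposited log2 ratios entered the fit unaltered; the 8 arrays had values for 14261 to 15042 of 15388 spots and SDs of 0.25 to 0.45. The number of arrays limits the precision.

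Spots were named through the platform annotation (9598 with 1 symbol, 514 with several, 5276 with none; 9510 matched RefSeq GRCm38.p6 by Entrez identifier). Spots of a gene were averaged, giving 12761 features. limma 3.58.1 (lmFit, eBayes) in R 4.3.3 fitted day means and a replicate-pair term on the 8 arrays, with Benjamini-Hochberg adjustment over the 12085 features with 3 or more arrays a day and a threshold of 0.05, after tests on simulated data. Same-numbered arrays of the days deviated together (r 0.15 to 0.43 in 4 of 4 numbers, all over 0.1), so the replicate number was also fitted as a block. These deviations still held the difference between the replicate pairs, so the check cannot tell pairing by number from likeness within a pair. Arrays of different days and numbers within a pair gave r of 0.12 to 0.55. The genes and the 28 gene lists were chosen with earlier results of these data known. Named genes were up to 15 in each direction with the largest differences among those that passed with all 8 values, no overlap and 1 sign in both pairs, up to 4 passing or else 2 lowest-p genes of each list, and up to 5 of each onset class.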

Additional observations from a re-analysis of the deposited data

Results flagged for a closer look

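Of 52 groups of 4 arrays examined for a value far from the rest, 1 had such a value, and chance alone gives about 1 in 20: Top2a on 1 day 1 array was at -0.32, where the other 3 lay between -0.05 and -0.03.

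In 9 spots with no single gene symbol, the day 3 minus day 1 difference itself differed between the replicate pairs, by the interaction term of limma (adjusted p under 0.05). The difference in replicates 1 and 2 minus that in replicates 3 and 4 was 2.71, 2.48, 2.37, 2.19, 2.05 and 1.44 in 6 of them and -1.63, -1.62 and -1.27 in the other 3. The most distant, at 2.71, had a difference of 1.49 in replicates 1 and 2 and of -1.21 in replicates 3 and 4.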

How the results depend on the processing

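All 26 named genes that passed kept their direction in every alternative fit by gene. This follows largely from their choice on these same arrays, for no overlap and 1 sign in both pairs. Single spots reversed for H19 alone, where 1 of 8 spots gave -0.047 (adjusted p = 0.90). The count of 39 was 38 with median centring, 38 with 2 arrays a day as the minimum, 48 (21 higher, 27 lower) with all 8 values required and 53 (28 higher, 25 lower) with each spot on its own. It was 17 (7 higher, 10 lower) without the pair term, 7 (6 higher, 1 lower) with the replicate block, 24 (12 higher, 12 lower) with day and pair as a random block, and 331 (145 higher, 186 lower) with the spread of all 36 arrays. It was 106 (41 higher, 65 lower) with arrays set to a common spread, 2 (1 higher, 1 lower) with replicates 1 and 2 alone, where 1937 features had an unadjusted p under 0.05, and 1 (0 higher, 1 lower) with replicates 3 and 4 alone, where 1506 did. Leaving out 1 array gave 13 to 36 (6 to 16 higher, 7 to 20 lower). The fit on 36 arrays shared 37 of its calls with the 39, as did that with a common spread, and all 24 of the random block were among them. Same-numbered arrays met the stated check, which cannot tell pairing by number from likeness within a replicate pair. In their deviations just 4 of 8 arrays correlated best with the array of the other day that has their number. Among genes that did not pass, the sign reversed in Krt7 (0.08), to -0.10 in replicates 3 and 4, -0.054 with a common spread and -0.0084 without day 3 replicate 2 and -0.0092 without day 1 replicate 4 (highest 0.24 without day 1 replicate 3); in Cav1 (-0.14), to 0.024 in replicates 3 and 4; in Tnnt1 (-0.20), to 0.041 without day 3 replicate 3 (range -0.31 to 0.041); and in Atp2a2 (-0.09), to 0.051 in replicates 1 and 2. Apart from the smaller number of arrays in some fits, the cause of these changes was not tested.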

Other observations

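X-linked genes made up 5 of the 26 named genes that passed (19.2%), against 205 of 6518 tested genes with 1 symbol (3.15%). They were Slc38a5, Itm2a and Bgn, higher at day 3, and Rbm3 and S100g, lower at day 3, so they did not move in 1 direction. Over all 205 tested X-linked genes the median difference was -0.01, against 0.01 for the other tested genes, and 96 were positive. No test was made of this count.

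Of 8 endothelial genes and 7 interferon-inducible genes, every difference was positive, with medians of 0.12 and 0.11, and none passed. The highest endothelial value was that of Cd34, a surface glycoprotein of vessels and progenitor cells, at 0.28 ± 0.25 at day 3 and -0.13 ± 0.16 at day 1 (SD, n = 4 each; adjusted p = 0.16 by limma). In alveolar type II genes the lowest p was that of Etv5, a transcription factor of these cells, at -0.27 ± 0.43 at day 3 and -0.82 ± 0.23 at day 1 (adjusted p = 0.12 by limma). H2-Eb1, a chain of MHC class II, averaged 0.00 at day 3 and -0.50 over 3 day 1 arrays (adjusted p = 0.11 by limma). Socs3, an inhibitor of cytokine signalling, averaged 0.25 ± 0.15 at day 3 and 0.74 ± 0.14 at day 1 (adjusted p = 0.089 by limma).

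No gene passed among 24 cytosolic chaperones, 27 proteasome genes, 21 antioxidant and xenobiotic enzymes, 20 fatty acid and adipose genes, 7 airway and 2 alveolar type I genes, 4 lymphocyte and MHC class II genes, 5 inflammatory mediators and 3 muscle genes. Their median differences were 0.01, -0.01, 0.08, -0.05, 0.15, -0.03, 0.09, -0.48 and -0.10, in that order.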
